A study of Mus musculus with 6 samples.

Results

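The Hedgehog pathway genes examined here were 9 genes of the mouse, 3 ligand genes (Shh, Ihh and Dhh), 2 genes of the receptor complex (Ptch1 and Smo), 3 genes of the transcription factors at its end (Gli1, Gli2 and Gli3) and the gene of a ligand-binding antagonist (Hhip). They were taken by symbol from a table of 36699 gene rows, and each of the 9 had 1 row of its own. RNA was measured in A2Lox.cre mouse embryonic stem (ES) cells, a line built to take up a doxycycline-driven transgene, here Flag-tagged Sp5, on day 3 of growth as embryoid bodies. The 3 libraries labelled minus Dox (replicates 2, 3 and 4) came from cells with no doxycycline. The 3 libraries labelled plus Dox (replicates 1, 3 and 4) came from cells given the drug for the last 24 hours to express Flag-Sp5, a zinc-finger transcription factor of the Sp family. Both groups had been kept on feeder fibroblasts of FVB mouse embryos, which were removed before embryoid bodies were formed. No cells with the drug but lacking the transgene were analysed here, so effects of doxycycline and of Flag-Sp5 cannot be told apart. The labels do not say whether replicates were separate cultures or the line 1 clone, so the tests may measure only technical spread.

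Hedgehog ligands are secreted, lipid-modified proteins. They bind Patched, which otherwise holds the membrane protein Smoothened inactive, and freed Smoothened acts at the primary cilium to turn Gli proteins from repressors into activators of transcription. Gli1, Ptch1 and Hhip are direct targets in many tissues, so their RNA is commonly read as a measure of signalling, whereas the co-receptor genes Cdon, Boc and Gas1 are commonly lowered by it. In the gastrulating mouse embryo Ihh is known from the visceral endoderm and Shh from the node and the axial midline.

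Expression is given in FPKM, fragments scaled to transcript length and library size, which allows levels of different genes to be set side by side. A group's 3 libraries were merged into 1 value by the authors, so a level has no SD, n or spread over samples, and no neighbours in an order of levels can be told apart by their spread. Without counts, the depth is unknown. A gene is said to have risen or fallen where q, the p-value after Benjamini-Hochberg adjustment, was under 0.05 in the authors' deposited table. That table's p-values equal the two-sided normal tail of its test statistic. The absolute log2 fold change divided by the absolute statistic therefore gives the standard error (SE) that the authors' Cuffdiff model implies for a fold change. Absolute values were taken because the statistic had the opposite sign to the fold change in every tested row with both values above 0. The 95% intervals below are built from this SE without adjustment for the number of genes. Sp5 itself stood at 0.769 and 126 FPKM without and with doxycycline, the direction the labels state. The pluripotency genes Pou5f1 (999 and 1058 FPKM) and Sox2 (60.8 and 60.6 FPKM) were present in both groups.

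Of the 9 genes, 3 had risen and none had fallen. Gli1 rose 2.43-fold, Ihh 1.52-fold and Ptch1 1.16-fold, while Smo, Gli2, Gli3, Dhh and Hhip were not called and Shh was too low to be tested. These were 3 of 8 tested members (37.5%), beside 23.2% of 18537 tested rows called in either direction (10.5% higher, 12.7% lower) in the authors' deposited table. With so few members, the shares serve as description only. The median log2 fold change of the 8 tested members was 0.10, against -0.03 over all tested rows with a value above 0 in both groups.

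**Figure D1:**
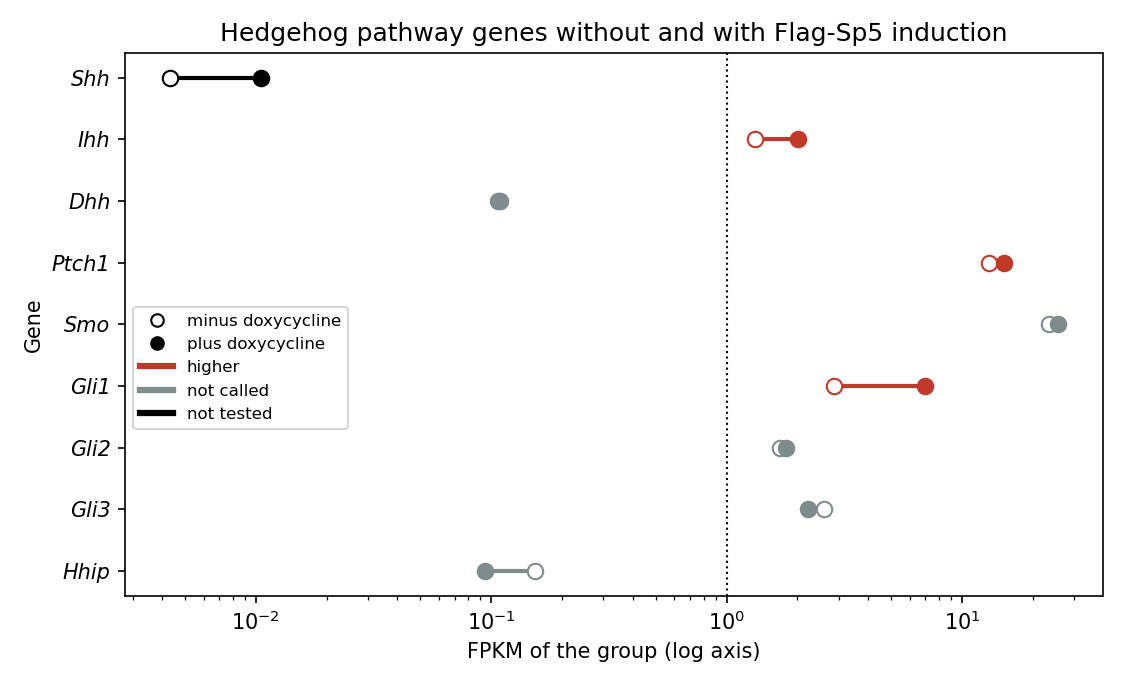
Level of each Hedgehog gene in FPKM on a log axis, without (open circles) and with doxycycline (filled circles), coloured by the authors' call; the dotted line marks 1 FPKM. Gli1 moved from 2.87 to 6.97 FPKM, Smo and Ptch1 were the highest of the 9 in both groups, and Shh, Dhh and Hhip lay under 1 FPKM.

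Promoter sequence is shown for 3 members, Ihh and Ptch1, which rose, and Dhh, which was not called and held the most GC boxes of the 7 members with an entry, so that a reader can see which Sp-type and Gli-type letters stand next to each start. GC boxes (GGGCGG) and GT boxes (GGGTGG) are the letters that Sp and Klf factors are known to bind, and GACCACCCA is the known Gli site. The RefSeq table of build GRCm38.p6 matched 7 of the 9 members; Gli1 and Shh had no entry. Each line gives the 250 bases before the annotated start, 5′ to 3′ on the gene's strand, with GC and GT boxes of either orientation in capitals. The windows are chr1:74951673-74951922 (minus strand) for Ihh, chr13:63565736-63565985 (minus strand) for Ptch1 and chr15:98898541-98898790 (minus strand) for Dhh, in GRCm38.p6 and not in the build of the expression table.
Ihh: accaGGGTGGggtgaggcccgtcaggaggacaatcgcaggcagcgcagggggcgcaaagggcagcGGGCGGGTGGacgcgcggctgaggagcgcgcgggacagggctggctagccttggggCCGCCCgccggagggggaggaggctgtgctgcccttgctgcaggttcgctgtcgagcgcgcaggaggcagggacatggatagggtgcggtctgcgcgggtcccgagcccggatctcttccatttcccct
Ptch1: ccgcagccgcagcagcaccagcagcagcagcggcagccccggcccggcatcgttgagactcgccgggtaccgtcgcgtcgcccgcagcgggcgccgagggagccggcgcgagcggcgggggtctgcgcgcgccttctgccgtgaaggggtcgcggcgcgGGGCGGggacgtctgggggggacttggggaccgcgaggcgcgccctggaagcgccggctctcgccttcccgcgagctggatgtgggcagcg
Dhh: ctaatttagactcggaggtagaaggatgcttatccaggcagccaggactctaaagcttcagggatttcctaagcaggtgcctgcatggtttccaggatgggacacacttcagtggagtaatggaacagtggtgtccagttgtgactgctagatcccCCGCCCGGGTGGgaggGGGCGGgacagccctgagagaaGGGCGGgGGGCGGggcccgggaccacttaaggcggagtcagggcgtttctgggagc

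Motifs were searched on both strands from 250 bases before to 50 bases after the start. Ihh held 2 GC boxes, beginning 185 and 129 bases before the start, and 2 GT boxes, 1 of which overlaps the first GC box. Ptch1 held 1 GC box, 91 bases before the start, and no GT box. Dhh held 4 GC boxes and 1 GT box within 94 bases of its start, and the GT box directly adjoins the first GC box. At least 1 GC box was found in 6 of the 7 member windows (all but that of Smo), and in 35.7% of all 32851 windows of the same length. A GT box was found in 6 of the 7 (all but that of Ptch1), against 31.5% of all windows. The Gli site was in none of the 7 and in 0.253% of all windows. The member windows had between 61.7% and 76.3% G and C. That content was not computed for all windows, so the shares are not matched for it and no excess of boxes is read from them. GC boxes thus stood beside starts of members that rose and of members that were not called, and these matches are descriptions of letters, not of binding.

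Among the ligand genes, Ihh (Indian hedgehog) was the only one above 1 FPKM. It stood at 1.32 FPKM without and 2.01 FPKM with doxycycline, a rise of 0.60 ± 0.15 on the log2 scale (SE implied by the authors' statistic; 95% interval 0.31 to 0.89; q = 0.000507 in the authors' deposited table). Its row, XLOC_001283, covers chromosome 1, 74991891 to 74998246 of mm9, and shares that locus with no other row. Dhh (Desert hedgehog), known from testis and peripheral nerve, stood at 0.109 and 0.107 FPKM, without and with doxycycline. Its interval ran from -0.71 to 0.66 on the log2 scale (q = 0.99 in the authors' deposited table), and at its SE of 0.35 an observed change would have had to reach 0.88 to be called.

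Shh (Sonic hedgehog) was listed at 0.00430 FPKM without and 0.0106 FPKM with doxycycline. It was the lowest of the 9 members in both groups and was not tested in the authors' deposited table, where rows without a test for low level reached at most 0.0678 FPKM. The locus given for Shh, chromosome 5, 28783355 to 29260535 of mm9, is shared with 3 other rows, of which Gm10290 (0.523 and 0.462 FPKM) was the highest. Other genes listed for the node, notochord and floor plate, where Shh is made in the embryo, went both ways. Some of the listed genes, T and Cer1 among them, are not particular to these tissues. Of that list's 10 tested genes, the authors' deposited table calls 5 higher and 2 lower and leaves 3 uncalled. T (Brachyury) rose from 0.745 to 103 FPKM, the BMP antagonist gene Nog from 0.173 to 1.13 FPKM, the Nodal antagonist gene Lefty1 from 34.8 to 95.9 FPKM and the axon guidance gene Ntn1 from 1.35 to 2.05 FPKM. Chrd fell from 1.20 to 0.739 FPKM and Cer1 from 7.67 to 2.90 FPKM. Noto and Foxa2 were singled out with their values known. The notochord gene Noto was listed at 0.0134 and 0.0093 FPKM and was not tested, and Foxa2, a factor of node and endoderm, stood at 5.34 and 4.47 FPKM (q = 0.111 in the authors' deposited table).

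Other visceral endoderm genes more often fell than rose, and several were not called. With Ihh left out, the authors' deposited table calls 8 of that list's 15 tested genes lower and 1 higher, with 6 uncalled, and their summed level was 372 FPKM without and 298 FPKM with doxycycline. Spink3, singled out with its values known and called lower, held the largest part of both sums (162 and 128 FPKM). Dab2 (85.2 and 56.6 FPKM), singled out likewise, had no test result and is not in the sums. Afp (alpha-fetoprotein) went from 10.5 to 6.57 FPKM, the endoderm factor gene Gata6 from 4.43 to 2.76 FPKM, Sox7 from 2.49 to 1.46 FPKM and the apolipoprotein gene Apoa1 from 18.9 to 12.6 FPKM. Cubn, the gene of an endocytic receptor, and Apob fell by 0.44 and 0.41 on the log2 scale. The 3 genes that follow are given with their values known: Apoa4 rose from 3.90 to 5.07 FPKM, while neither Ttr, at 36.8 and 37.5 FPKM, nor Sox17, at 3.13 FPKM without and with doxycycline, was called. The part of this cell type in the Ihh value was not tested, and in bulk RNA fewer cells of a type and less RNA per cell cannot be told apart.

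In the receptor pair, Ptch1 (Patched, the ligand receptor and a pathway target) stood at 13.1 FPKM without and 15.2 FPKM with doxycycline. The rise of 0.21 ± 0.08 on the log2 scale (95% interval 0.05 to 0.37) was the smallest of the 3, and its q of 0.0452 in the authors' deposited table lay close to the threshold. In fold terms the interval ran from 1.04 to 1.30. Among the 1949 rises, 2.00% of those with a fold were smaller than this one. The Ptch1 row, XLOC_008624, covers chromosome 13, 63610261 to 63674474 of mm9. Smo (Smoothened, the signal transducer that Patched holds in check) was the most abundant member, at 23.5 FPKM without and 25.6 FPKM with doxycycline. It had the smallest SE of the 8, 0.06 on the log2 scale, and its difference of 0.12 (95% interval -0.0024 to 0.25; q = 0.172 in the authors' deposited table) was not called. Smo RNA was 1.80 times Ptch1 RNA without doxycycline and 1.69 times with it. Smo shares its locus with Gm13717, listed at 0.820 and 0.772 FPKM.

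Hhip (Hedgehog-interacting protein), a membrane-bound antagonist that sequesters ligand and is itself a pathway target, stood at 0.153 FPKM without and 0.0941 FPKM with doxycycline. Its log2 fold change of -0.70 had the widest interval of the members, -1.81 to 0.41 (q = 0.462 in the authors' deposited table). At the SE implied for Hhip, 0.57, an observed change would have had to reach 1.43 on the log2 scale to be called. An observed difference of 2-fold in either direction would thus not have been called, and a true change of that size could easily have been missed.

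The largest change in the set was that of Gli1, the Gli factor that acts only as an activator and whose gene is a direct target of the pathway. Gli1 stood at 2.87 FPKM without and 6.97 FPKM with doxycycline, 2.43-fold higher, with an interval of 2.10 to 2.82 in fold terms. On the log2 scale the rise was 1.28 ± 0.11 (the authors' deposited table lists its q as 0, below the smallest value printed there). Of tested rows whose higher group reached 1 FPKM, 3.17% had a larger absolute log2 fold change. It was the only member called with a change of at least 2-fold, as were 5.76% of all tested rows (3.54% higher) in the authors' deposited table. The Gli1 row, XLOC_003283, covers chromosome 10, 126759172 to 126778645 of mm9, an interval shared with Arhgap9. The protocol marks no strand, so reads of overlapping genes cannot be told apart; Arhgap9 stood at 0.760 and 0.774 FPKM (q = 0.988 in the authors' deposited table).

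Neither of the other Gli genes was called. Gli2, known mainly as an activator of early target genes, stood at 1.69 and 1.79 FPKM, without and with doxycycline (log2 fold change 0.08, 95% interval -0.15 to 0.31; q = 0.754 in the authors' deposited table). Gli3, whose cleaved form is the main repressor of the pathway, stood at 2.61 and 2.22 FPKM. Its log2 fold change of -0.23 had an unadjusted interval below 0 (-0.42 to -0.04), but q was 0.0654 in the authors' deposited table and Gli3 was not called. Gli1 RNA made up 40.1% of the summed level of the 3 Gli genes without doxycycline and 63.5% with it, and Gli3 RNA 36.4% and 20.2%. The ratio of Gli1 to Gli3 RNA went from 1.10 to 3.14. These shares come from single group values, and the difference between the Gli genes was not tested.

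**Figure D2:**
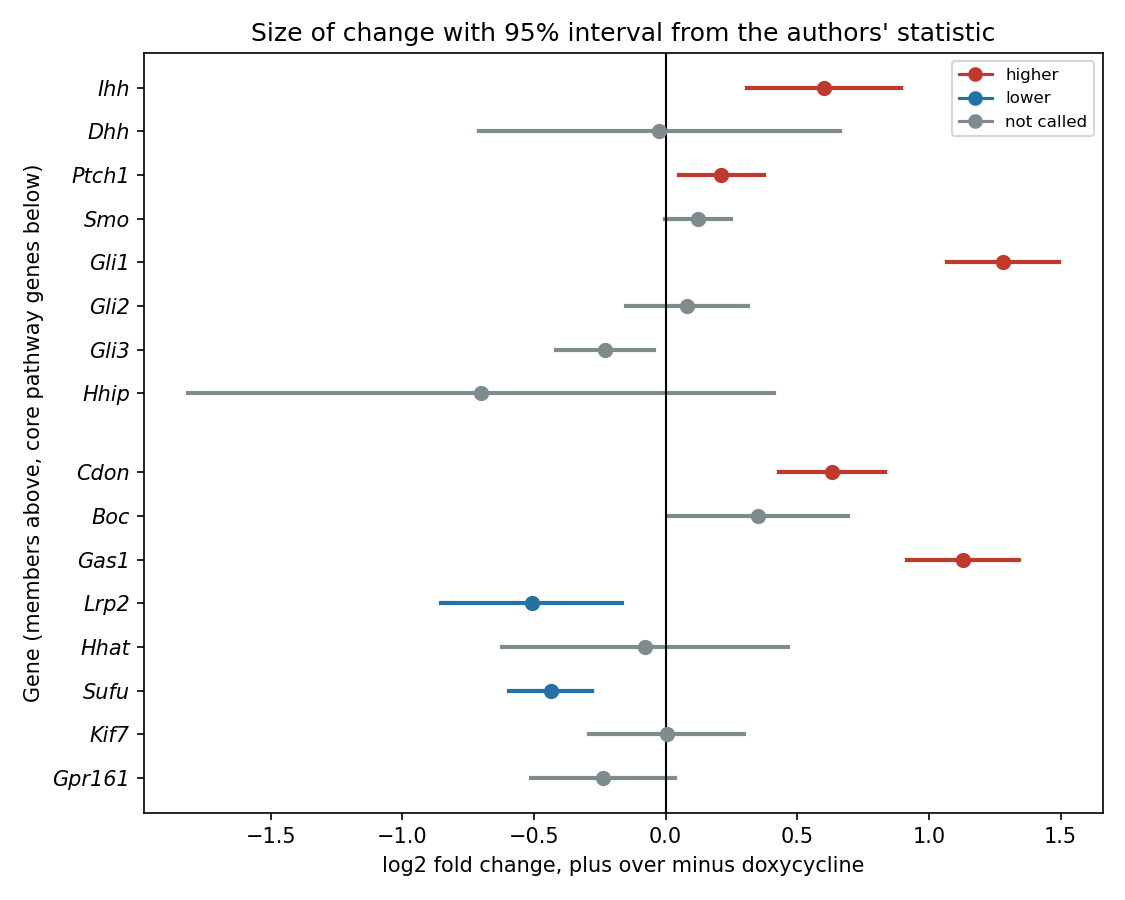
Log2 fold change, plus over minus doxycycline, of the 8 tested members (upper block) and of 8 tested core pathway genes (lower block); bars are 95% intervals from the authors' statistic, unadjusted. Gli1 (1.28) and Gas1 (1.13) stand farthest to the right, and Hhip has the widest bar.

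Precision differed with level. The SEs implied for Smo, Ptch1 and Gli3 were below the median of 0.11 over tested rows at 1 FPKM or more, those for Gli1 (0.11) and Gli2 (0.12) lay close to it, and those for Ihh (0.15), Dhh (0.35) and Hhip (0.57) lay above it. Of the 6 members at 1 FPKM or more, 3 rose, where 11.5% of such rows rose and 28.3% were called in the authors' deposited table.

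**Figure D3:**
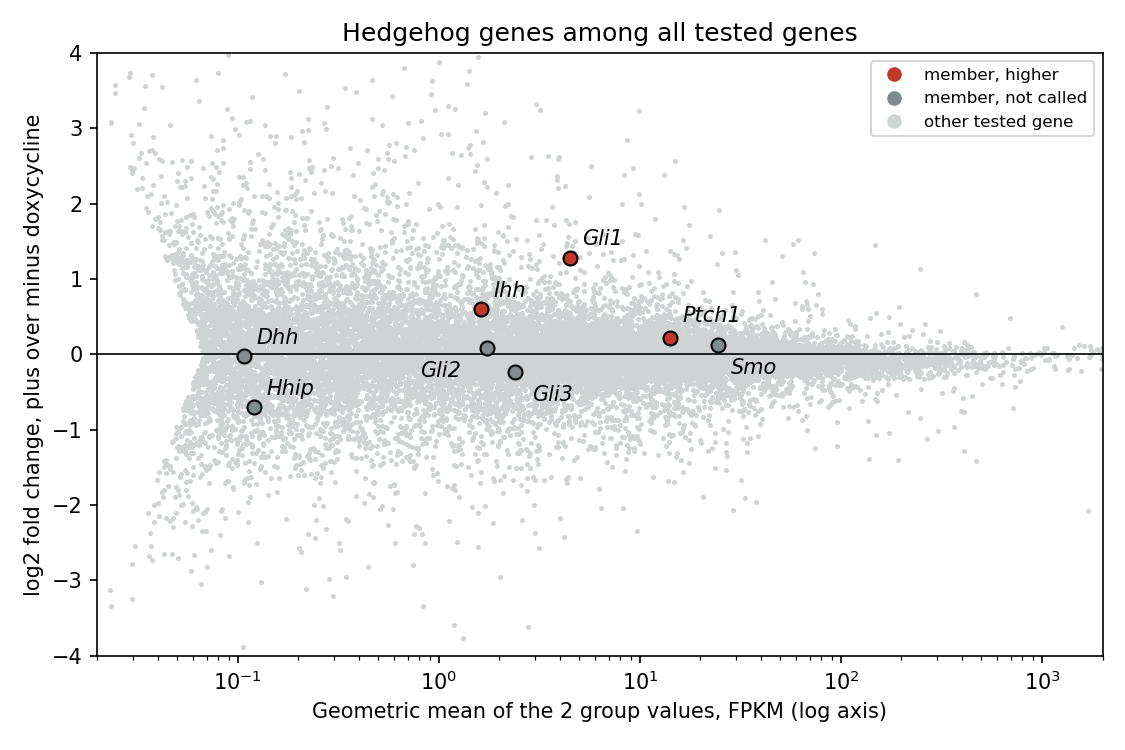
Log2 fold change of every tested gene (grey) against the geometric mean of its group values in FPKM on a log axis, with the 8 tested members coloured by call; 87 genes lie outside the axes. Gli1 lies above most genes of its level, whereas Ptch1 and Smo lie within the grey band near 0.

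Beyond the 9 members, 157 symbols of the pathway and its targets, sorted by role, were examined. Of 134 that were tested, the authors' deposited table calls 30 higher and 20 lower (37.3% called) and leaves 84 uncalled. Over all tested rows the share was 23.2%, and 28.3% over those at 1 FPKM or more, and the counts of each role and marker list below are to be read beside these shares. Their median log2 fold change was 0.04.

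Genes of ligand processing and release ranged widely in level. The authors' deposited table calls 3 of 7 tested higher and 1 lower and leaves 3 uncalled, with a median log2 fold change of 0.17. Scube3, of a family of secreted proteins that help release lipid-modified ligand, rose from 0.620 to 1.78 FPKM (2.87-fold). The glypican gene Gpc6 rose from 0.916 to 1.22 FPKM, and Gpc4 fell from 16.1 to 9.20 FPKM (1.75-fold lower). Hhat, the enzyme that adds palmitate to the ligands, stood at 0.429 and 0.406 FPKM and was not called. Disp1, the transporter that exports them, was listed at 0 in both groups and was not tested. Its row lies on the sequence NT_165754 and not on a named chromosome, and the 0 is not read as a level.

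Co-receptors and other surface binders changed in both directions, with calls in the authors' deposited table for 3 of 9 tested as higher and 2 as lower, and 4 uncalled (median log2 fold change 0.25). Gas1, a co-receptor that promotes ligand binding, rose from 2.08 to 4.54 FPKM (2.19-fold; log2 fold change 1.13 ± 0.11). The co-receptor gene Cdon rose from 2.05 to 3.17 FPKM (1.55-fold), and its relative Boc stood at 0.358 and 0.457 FPKM (q = 0.141 in the authors' deposited table). Gpc3, a glypican that competes with Patched for ligand, fell from 72.7 to 40.5 FPKM (1.79-fold lower). Lrp2, an endocytic receptor, fell from 25.9 to 18.2 FPKM.

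Of the 3 genes named above as direct targets, Gli1 and Ptch1 rose, and Hhip, whose value was lower with doxycycline, was not called. Of the 3 co-receptor genes named above as commonly lowered, Cdon and Gas1 rose and Boc was not called.

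Inside the cell, the authors' deposited table calls 5 of 38 tested regulators higher and 8 lower, and 25 uncalled, with a median log2 fold change of -0.11. Sufu, which binds Gli proteins and restrains them, fell from 9.47 to 6.99 FPKM (1.35-fold lower; log2 fold change -0.44 ± 0.08). Spop, the adaptor that sends full-length Gli2 and Gli3 to degradation, fell from 32.8 to 22.6 FPKM (1.45-fold). Prkaca, the catalytic subunit of protein kinase A that primes Gli3 for cleavage, fell from 27.5 to 21.9 FPKM (1.26-fold). The adenylyl cyclase gene Adcy6 fell 1.47-fold, whereas Adcy5, of the same enzyme family and singled out with its values known, rose from 0.110 to 0.250 FPKM (log2 fold change 1.18), the largest called change of the list. In addition, Smurf1, a ubiquitin ligase gene, rose 1.45-fold and Ankmy2, whose protein helps bring adenylyl cyclases to cilia, 1.23-fold. The kinesin gene Kif7 (2.38 FPKM in both groups) and the cilium receptor gene Gpr161 (1.13 and 0.956 FPKM) were not called.

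Cilium genes changed little in size. Among 50 tested genes of intraflagellar transport and the cilium, 11 are called higher and 4 lower by the authors' deposited table and 35 are uncalled, and no called gene reached a 2-fold change. The range of called changes was -0.52 to 0.70 on the log2 scale, with a median of 0.07 over all 50. The transition zone genes Cc2d2a (2.96 to 4.80 FPKM) and Mks1 (4.22 to 5.95 FPKM) rose, as did the motor gene Kif3a (1.33-fold), the dynein subunit gene Wdr60 (1.33-fold) and Rfx2, a factor of cilium genes (1.42-fold). Arl3, a small GTPase that releases ciliary cargo, fell from 30.8 to 21.4 FPKM (1.44-fold lower).

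**Figure D4:**
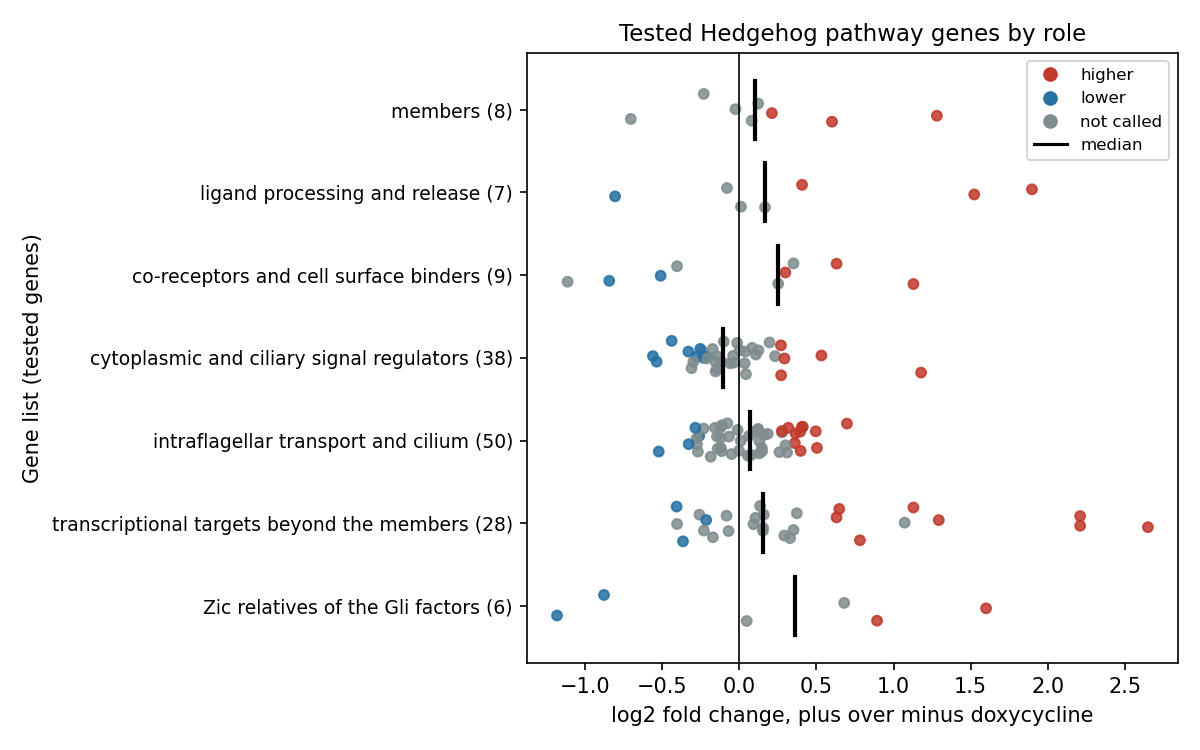
Log2 fold change, plus over minus doxycycline, of every tested gene by role, with the number tested in brackets; points are genes coloured by call and black bars are list medians. Called cilium genes lie between -0.52 and 0.70, the called intracellular regulators reach from -0.56 to 1.18, and Nkx2-9, a target, lies farthest to the right, at 2.65.

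Among the targets known from other tissues, the authors' deposited table calls 8 of 28 tested higher and 3 lower, and 17 uncalled (median log2 fold change 0.16). This list shares members with the co-receptors, Cdon, Boc and Gas1 among them, and holds genes that signalling raises and genes that it lowers, so its count has no single direction. The homeobox gene Nkx2-9, known from the ventral neural tube, rose from 0.516 to 3.23 FPKM (6.27-fold). Bmp4, a ligand gene of the BMP pathway, rose 4.62-fold (1.83 to 8.46 FPKM), the repressor gene Snai1 2.45-fold (1.64 to 4.02 FPKM), the T-box gene Tbx3 1.72-fold and Prdm1, a factor of germ cells and foregut, 1.57-fold. The 3 called lower, singled out with their values known, were Ccne1 (112 to 84.7 FPKM), Ccnd1 (35.8 to 30.9 FPKM) and Rab34 (33.4 to 25.9 FPKM). The summed level of the tested genes was 309 FPKM without and 281 FPKM with doxycycline. Ccne1 held the largest part of both sums, so they do not give the direction of the list. The ventral neural tube genes Nkx2-2 (0.173 and 0.154 FPKM) and Nkx6-1 (0.0336 and 0.0706 FPKM), singled out with their values known, were not called. Olig2, singled out likewise, was listed at 0.0131 and 0.0032 FPKM and was not tested.

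The Zic and Glis genes, relatives of the Gli factors by their zinc fingers, went both ways. Zic2 fell from 51.2 to 22.6 FPKM (2.27-fold lower) and Zic5 from 29.6 to 16.1 FPKM (1.83-fold lower), while Glis2 rose from 6.49 to 12.1 FPKM (1.86-fold). The authors' deposited table calls 2 of 6 tested higher and 2 lower, and 2 uncalled. The other rise, singled out with its values known, was that of Glis3, from 0.167 to 0.505 FPKM.

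Markers of cells that could carry Gli1 or other Hedgehog genes moved in both directions. The feeder fibroblast list holds 22 tested genes, of which the authors' deposited table calls 6 higher and 6 lower with 10 uncalled, and its summed level was 128 FPKM without and 110 FPKM with doxycycline. Tagln held the largest part of both sums. The collagen genes Col1a1 (1.11 to 4.43 FPKM) and Col5a1 (1.03 to 1.91 FPKM) and the metalloproteinase gene Mmp2 (6.62 to 14.9 FPKM) rose with Gli1, while the contractile genes Acta2 (18.9 to 9.92 FPKM) and Tagln (56.9 to 36.5 FPKM) and the mesoderm factor gene Twist1 (1.33 to 0.803 FPKM) fell. In the neural ectoderm list 2 of 9 rose and 5 fell, in the blood and endothelium list 1 of 13 rose and 6 fell, and in the somite and limb mesoderm list 2 of 7 rose and none fell in the authors' deposited table. Irx3 rose from 0.395 to 4.77 FPKM. Nes (13.8 to 5.24 FPKM), Sox3 (13.7 to 6.37 FPKM), Otx2 (112 to 70.0 FPKM) and Pax6 (1.05 to 0.26 FPKM) fell. Etv2 (5.15 to 1.47 FPKM) and Flt1 (1.04 to 0.705 FPKM) fell and Pecam1 rose 2.06-fold. The part of these cells in the values of the Hedgehog genes was not tested.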

How the data were processed

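The authors deposited 1 gene-level table in the Cuffdiff layout. The submitters' processing notes name Cuffdiff, Cufflinks 2.0.2, TopHat2 2.0.8, Picard and Bowtie, and the mouse build mm9; for the annotation, the scaling and any filter, the settings are not given in the sources here. Per the file headers, the authors' values are FPKM per group, a log2 fold change, a test statistic (used here as a score from which an SE was computed), p-values and q-values. Per the labels' protocols, oligo-dT beads captured the mRNA for TruSeq libraries. With no values per library, the authors' test is the main test.

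The deposited table was checked: log2 ratios equalled the deposited ones within 1.31e-05, p-values equalled the normal tail of the statistic within 2.84e-06 in 18284 rows, and Benjamini-Hochberg adjustment over 18537 rows with status OK gave the q-values within 1.79e-06. Starts were read as counted from 0, since spans then equalled RefSeq GRCm38.p6 spans in 3403 of 16504 genes, against 304 otherwise; printed starts count from 1. Folds, intervals and medians were computed in Python 3.11.15 (scipy 1.17.1, pandas 2.3.3, numpy 2.4.6). The interval code was run on data simulated with a statistic set as the log ratio over its SE. That run checks the code only and cannot show whether the authors' statistic has this form.

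Named genes are all 9 members, 9 core genes whatever their values, and in each list at most 6 called genes with the largest absolute log2 fold change whose higher group reached 1 FPKM; outside this rule stand the checks (Sp5, Pou5f1, Sox2), genes sharing a locus with a member, and genes marked as singled out. Of the 157 listed symbols, 9 had no row of their own, 1 had more than 1 row and 13 were not tested. Lists were 6 by pathway role and 6 of markers. Some genes of these lists are counted but not reported here by name. Members and lists were chosen with earlier results of these data known. Alternatives were a level minimum, stricter thresholds, pseudocounts and a scaling by the median.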

Additional observations from a re-analysis of the deposited data

How the results depend on the processing

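With a minimum fold of 2 beside q under 0.05 in the authors' deposited table, counts fell to 1068 of all tested rows (656 higher, 412 lower; 5.76%), 1 of the Hedgehog members (Gli1), 2 genes of ligand processing and release, 1 co-receptor (Gas1), 1 intracellular regulator (Adcy5, named after its values were seen), 0 cilium genes (15 called without the minimum), 5 further targets and 2 Zic and Glis genes. With q under 0.01, 2 members remained called, Gli1 and Ihh, and Ptch1 did not. The level minimum, the renewed adjustment and q under 0.01 each kept every count of calls within 1.5 times. Subtracting the median ratio leaves q as deposited, so it could not change these counts and says nothing of their stability; it turned the direction of no called gene in them. The members' median log2 fold change of 0.10 was 0.0997 with a pseudocount of 0.1 FPKM, 0.0849 with 1 FPKM, 0.146 with the median ratio of -0.04 subtracted and 0.168 over members at 1 FPKM or more. That subtraction turned the sign of Dhh, to 0.0199, and of no other member. No paired analysis was possible because the deposited columns are group values that carry no replicate number, and for the same reason leaving out a library, DESeq2 and other count tests were not run. Without values per library, a rise that rests on 1 library cannot be told apart from one shared by all 3. Shh, Dhh and Hhip were low, and Dhh and Hhip had the widest implied intervals of the 8 tested members; Shh was not tested.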
